A study of Homo sapiens with 2 samples.

Results

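The transcripts described here are those of the human mitochondrial genome in an established hepatocellular carcinoma (HCC) cell line, PLC8024, which the labels also call Alexander cells. The members are the genes that the deposited count table places on chromosome MT, and there are 37 of them among 58735 listed genes. They comprise 13 mRNA genes, 2 rRNA genes and 22 tRNA genes. The study sequenced 1 library of wildtype cells that were not treated (MAEL WT) and 1 library of cells in which MAEL had been knocked out with an sgRNA and Cas9 (MAEL KO). Knockout cells were sorted and seeded for single clones, and how many clones went into the sequenced culture is not given in the sources used here. With 1 library per condition there is no replicate error, so no p-value is given, and clone, culture and library preparation cannot be told apart from the knockout.

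The counts summed to 19904136 in MAEL WT and 20833332 in MAEL KO. MAEL itself had 1 count and 0 counts, so the labels could not be checked by the targeted gene. The liver secretory genes APOB, TF, FGA and SERPINA1 had 65436 counts or more in each library, whereas ALB and AFP had 59 and 26 counts in MAEL WT and 8550 and 1351 in MAEL KO. The other liver genes looked at were APOA1, with 419 and 4400 counts, TTR, with 20 and 155, and HNF4A, with 2816 and 5391. Of 4 markers of other cells, the leukocyte gene PTPRC had 3 and 0 counts, the fibroblast gene COL1A1 92 and 11, the mesenchymal gene VIM 343 and 368, and the endothelial gene PECAM1 348 and 392. Normalized counts are counts scaled to equal TMM effective library size, and a log2 fold change sets the knockout over the wildtype library after adding 1 normalized count to each. It was computed where at least 1 library had 10 counts or more, which held for 17887 of all genes and 29 of the 37 mitochondrial genes. Intervals are 95% exact Clopper-Pearson intervals and cover counting error only.

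The mitochondrial genome is a small circle that is transcribed from both strands as long precursors, from which tRNAs are cut out so that the mRNAs and rRNAs between them are freed. Its mRNAs encode core subunits of complexes I, III, IV and V of oxidative phosphorylation, and its rRNAs and tRNAs serve the mitochondrial ribosome that translates them. Genes annotated on the plus strand are called heavy-strand genes here, after the strand that templates them, and those on the minus strand light-strand genes. A hepatocyte is rich in mitochondria, which carry part of the urea cycle and the oxidation of fatty acids as well as respiration.

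The light-strand tRNA genes with the most counts are shown first, 5′ to 3′ from GENCODE 29 on GRCh38, with the anticodon in capitals. MT-TN, MT-TC and MT-TY, the tRNAs for asparagine, cysteine and tyrosine, stand next to each other (chromosome MT, minus strand, 5657 to 5729, 5761 to 5826 and 5826 to 5891). MT-TP, the tRNA for proline, is the last listed gene in the numbering of the genome (15956 to 16023).
MT-TN: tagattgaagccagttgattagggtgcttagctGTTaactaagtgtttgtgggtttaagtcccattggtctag
MT-TC: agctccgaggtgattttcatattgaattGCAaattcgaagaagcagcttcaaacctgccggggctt
MT-TY: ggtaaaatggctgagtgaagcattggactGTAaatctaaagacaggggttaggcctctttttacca
MT-TP: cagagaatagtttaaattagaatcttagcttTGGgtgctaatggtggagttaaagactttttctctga

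The mRNA genes are shown by their 3′ ends where these matter for how the transcript is finished. In 6 of the 13 mRNA genes the length is not a multiple of 3, and the stop codon is known to be completed by the poly(A) tail. The last 15 bases of these genes follow, from the same transcripts, with the unfinished stop codon in capitals.
MT-ND1: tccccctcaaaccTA
MT-ND2: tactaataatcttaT
MT-CO3: attgatgagggtctT
MT-ND3: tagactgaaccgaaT
MT-ND4: ccgggttttcctctT
MT-CYB: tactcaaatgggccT

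The mitochondrial genes took 880316 counts in MAEL WT and 1032281 in MAEL KO, which is 4.42% (95% interval 4.41% to 4.43%) and 4.95% (4.95% to 4.96%) of all counts. By deposited FPKM, which is per gene length, 12 of the 20 highest genes in MAEL WT and 13 in MAEL KO were mitochondrial, and MT-CO1 was the highest of all genes in both libraries. The make-up of these counts differed between the libraries. The mRNAs went from 84.7% to 92.9% of the mitochondrial counts, the rRNAs from 14.6% to 6.60%, and the tRNAs from 0.637% to 0.470%. The ratio of mRNA to rRNA counts was 5.78 in MAEL WT and 14.1 in MAEL KO, a difference of 1.28 on the log2 scale (95% counting interval 1.27 to 1.30). This ratio is taken within each library and does not depend on the scaling between them.

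**Figure D1:**
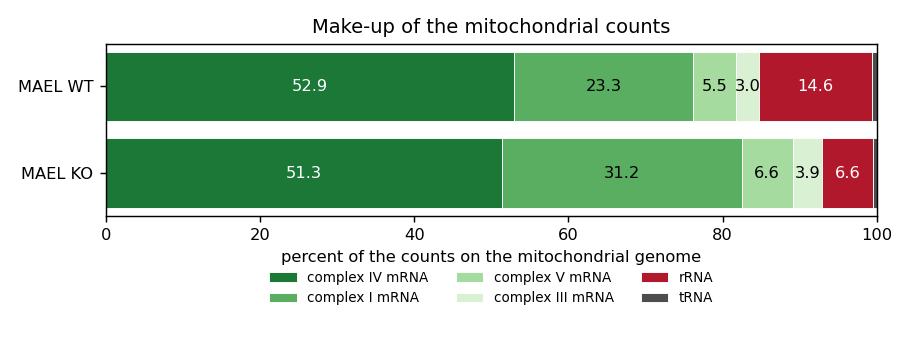
Share of the counts on the mitochondrial genome (x axis, percent) taken by the mRNAs of each respiratory complex, the rRNAs and the tRNAs in the 1 MAEL WT and the 1 MAEL KO library. The rRNA segment goes from 14.6% to 6.6% and that of complex I mRNAs from 23.3% to 31.2%.

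Of the 29 tested mitochondrial genes, 22 had a log2 fold change above 0, against 48% of all tested genes. At least 2-fold higher in MAEL KO were 5 of the 29, beside 10.2% of all tested genes, and 1 was at least 2-fold lower, beside 16.5%. Past 4-fold in either direction was 1 gene, MT-TW, beside 7.8% of all genes, and it rests on 14 and 2 counts. All 13 mRNAs were above 0 and both rRNAs below 0 with TMM factors, while the tRNAs were on both sides, 9 of 14 above 0. When total counts replace TMM factors, the library scale moves down by 0.28, MT-CO1 goes to -0.028 and the tRNA MT-TT to -0.065, so that 12 of the 13 mRNAs are above 0. The median of all tested genes moves in the same step from -0.038 to -0.31.

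**Figure D2:**
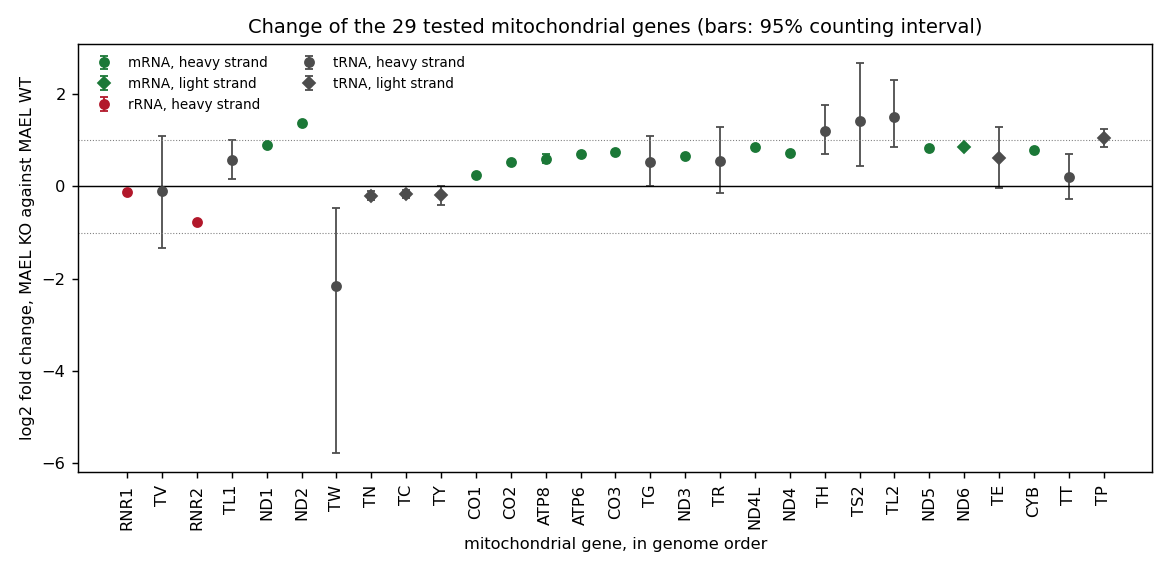
Log2 fold change, knockout over wildtype library (y axis), for the 29 tested mitochondrial genes in genome order (x axis), with colour for the RNA class, diamonds for light-strand genes, bars for the 95% counting interval and dotted lines at 2-fold. The 13 mRNAs lie between 0.25 and 1.37, the rRNAs at -0.13 and -0.76, and MT-TN, MT-TC and MT-TY between -0.20 and -0.17.

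The rRNAs were both lower in MAEL KO, and unequally so. MT-RNR2, the 16S rRNA of the large ribosomal subunit (1671 to 3229), had 120345 counts in MAEL WT and 61317 in MAEL KO, or 112181 and 66129 normalized counts. Its log2 fold change was -0.76 (95% interval -0.78 to -0.75). MT-RNR1, the 12S rRNA of the small subunit (648 to 1601), had 8597 and 6804 counts, a log2 fold change of -0.13 (-0.17 to -0.08). The count of MT-RNR2 was 14.0 times that of MT-RNR1 in MAEL WT and 9.01 times in MAEL KO. Per kilobase, MT-RNR2 ranked 4 among the 37 genes in MAEL WT and 10 in MAEL KO.

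The labels do not say whether libraries were made by poly(A) selection or rRNA depletion. The 58 rRNA genes off the mitochondrial genome had 3 and 9 counts in all. The 1909 snRNA genes had 707 counts in MAEL WT and 693 in MAEL KO. Of a list of 10 other RNAs that lack a usual poly(A) tail or stay in the nucleus, 3 were tested. None of the 3 had a log2 fold change above 0, beside 48% of all tested genes. MALAT1 had 5407 counts in MAEL WT and 1502 in MAEL KO, a log2 fold change of -1.64, and NEAT1 16194 and 1699, a log2 fold change of -3.04. RN7SL2, an RNA of the signal recognition particle, had 32422 and 26140 counts and a log2 fold change of -0.10. Of the 10 RNAs on that list, the other 7 had 0 counts in both libraries. The part of RNA fraction or library preparation in the lower rRNA counts was not tested.

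Complex I takes electrons from NADH, and 7 of its core subunits are mitochondrial genes. All 7 were higher in MAEL KO, and their summed counts went from 204948 to 321622, a log2 fold change of 0.86 (95% interval 0.85 to 0.87). MT-ND2 (4470 to 5511) had 22266 counts in MAEL WT and 49777 in MAEL KO, or 20756 and 53684 normalized counts. Its log2 fold change of 1.37 (1.35 to 1.39) was the largest of the 13 mRNAs and the only one of them past 2-fold. The neighbouring MT-ND1 (3307 to 4262) had 22767 and 36683 counts, a log2 fold change of 0.90 (0.87 to 0.92). These genes had nearly equal counts in MAEL WT, with 0.978 counts of MT-ND2 for each of MT-ND1, and 1.36 in MAEL KO.

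Lower on the precursor, MT-ND3 had 19842 and 26942 counts, MT-ND4L 10281 and 16023, MT-ND4 71282 and 101511, and MT-ND5 37319 and 57526. Their log2 fold changes were 0.65, 0.85, 0.72 and 0.83. MT-ND6 (14149 to 14673), the only mRNA of the light strand and a complex I subunit, had 21191 and 33160 counts and a log2 fold change of 0.86 (0.83 to 0.88). The ratio of MT-ND6 to MT-ND5, which stands tail to tail with it on the other strand, was 0.568 in MAEL WT and 0.576 in MAEL KO, a log2 difference of 0.022 (-0.0095 to 0.053) that includes 0. Whether strand was used in counting is not given in the sources used here, and without it, reads of MT-ND6 cannot be told apart from antisense RNA of the heavy-strand precursor.

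Complex IV, cytochrome c oxidase, hands electrons to oxygen, and its 3 mitochondrial subunits form the catalytic core. They held 52.9% of the mitochondrial counts in MAEL WT and 51.3% in MAEL KO. MT-CO1 (5904 to 7445) had 306671 counts in MAEL WT and 314802 in MAEL KO, or 285868 and 339508 normalized counts. Its log2 fold change of 0.25 (0.24 to 0.26) was the smallest of the mRNAs, and its share of the mitochondrial counts went from 34.8% to 30.5%. MT-CO2 had 83837 and 105331 counts and a log2 fold change of 0.54 (0.53 to 0.55), and MT-CO3 75453 and 109816 counts and 0.75 (0.74 to 0.77). The oxidase subunits thus spanned 0.25 to 0.75, and the complex I subunits 0.65 to 1.37. Relative to complex IV mRNAs, complex I mRNAs went from 0.440 to 0.607 counts, a log2 difference of 0.46 (0.45 to 0.47), and without any scaling between libraries.

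Complex III passes electrons from ubiquinol to cytochrome c. Its mitochondrial subunit cytochrome b, MT-CYB (14747 to 15887), had 26790 and 39855 counts and a log2 fold change of 0.78 (0.76 to 0.81). Complex V is the ATP synthase. MT-ATP6 and MT-ATP8 encode parts of its membrane portion and are carried on a shared mRNA, with reading frames that overlap by 46 bases (chromosome MT, 8527 to 8572). The overlap follows, from GENCODE 29, with the start codon of MT-ATP6 and the stop codon of MT-ATP8 in capitals.
Overlap: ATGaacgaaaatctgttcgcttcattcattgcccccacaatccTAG

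MT-ATP6 had 46335 counts in MAEL WT and 65615 in MAEL KO, a log2 fold change of 0.71 (0.70 to 0.73), and MT-ATP8 1729 and 2268 counts and 0.60 (0.51 to 0.69). Their changes differed by 0.11 (0.02 to 0.20), a small amount for reading frames of 1 mRNA. Per kilobase, MT-ATP6 had 63424 normalized counts in MAEL WT and MT-ATP8 had 7786. MT-ND4L and MT-ND4, which share an mRNA as well and overlap by 7 bases, had 32268 and 48220 normalized counts per kilobase in MAEL WT, and the log2 ratio of MT-ND4 to MT-ND4L differed between the libraries by -0.13 (-0.17 to -0.09). How reads on both frames were counted is not given in the sources used here, so levels within these pairs are uncertain.

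The mRNAs kept nearly the same order of level in both libraries. In normalized counts per kilobase, MT-CO1 stood at 185388 in MAEL WT and 220174 in MAEL KO, MT-CO2 at 114254 and 166078, and MT-CO3 at 89713 and 151064. MT-ATP8 was the lowest mRNA in both, at 7786 and 11816. Among neighbours in the order of mRNA and rRNA genes, only MT-ND1 and MT-CYB in MAEL WT, at 22199 and 21887, had overlapping counting intervals. MT-ND2 moved up among the 37 genes from rank 14 to rank 9. Spearman's rho between the levels of the 13 mRNAs in the libraries was 0.98, a description across genes of 2 libraries. Across genes, which are not independent, rho of the log2 fold change was 0.088 with gene length and 0.049 with GC content over 13 mRNAs. It was 0.070 with start position over the 12 of the heavy strand, and -0.55 with the level in MAEL WT over 13. That level is also the denominator of the fold change, which favours a negative rho by construction.

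**Figure D3:**
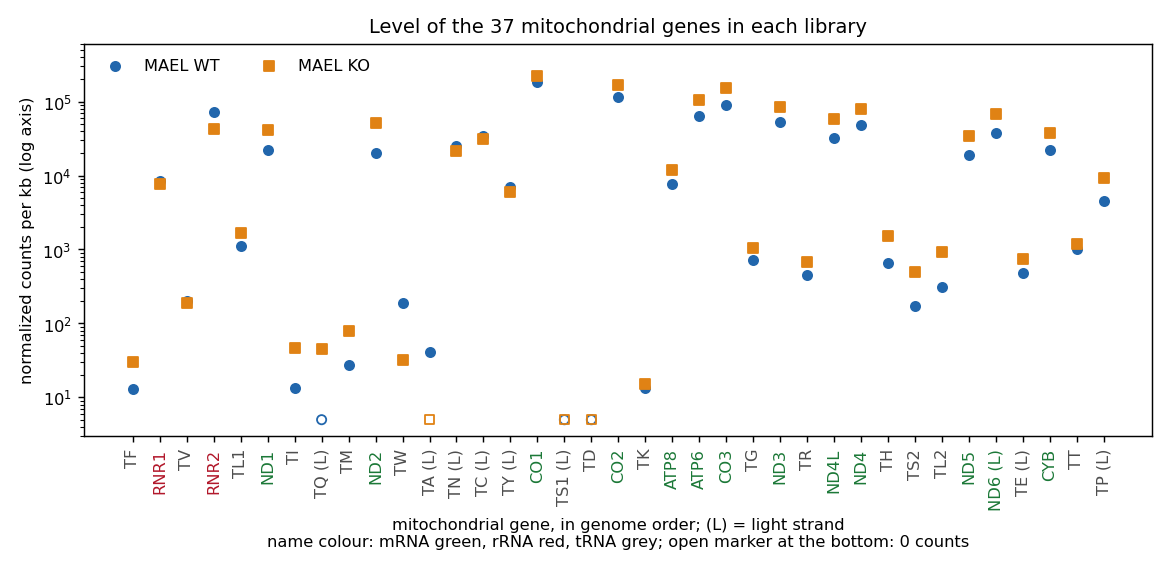
Normalized counts per kilobase (y axis, log scale) of the 37 mitochondrial genes in genome order (x axis) in MAEL WT (circles) and MAEL KO (squares), with open markers at the bottom for 0 counts. The mRNAs lie above most tRNAs, whereas MT-TN and MT-TC, at 24722 and 34674 in MAEL WT, lie among the mRNAs.

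By strand, the 28 heavy-strand genes had 853877 counts in MAEL WT and 994775 in MAEL KO, or 0.43 on the log2 scale, and the 9 light-strand genes 26439 and 37506, or 0.71 (0.69 to 0.74). MT-ND6 made most of the light-strand counts. The 8 light-strand tRNAs alone had 5248 and 4346 counts, or -0.062 on the log2 scale (-0.12 to -0.0035), opposite in sign to MT-ND6. The 14 heavy-strand tRNAs had 363 and 505 counts, or 0.69 on the log2 scale (0.49 to 0.89). Strand setting is unknown for these tRNA genes as for MT-ND6, so part of their counts could be RNA of the opposite strand.

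The 22 tRNA genes had 5611 counts in MAEL WT and 4851 in MAEL KO, and MT-TN, MT-TC and MT-TY held 4883 and 3712 of them. With TMM factors, the summed log2 fold change of the 22 was 0.00037 (-0.055 to 0.056), an interval that includes 0. A tRNA gene is shorter than a usual sequenced fragment, so counts on it can come from precursors that span it, and levels of mature tRNA were not measured. MT-TC, at 2455 and 1889 counts, was the tRNA gene with the highest count in each library. Its log2 fold change was -0.17 (-0.26 to -0.08). MT-TN had 1936 and 1452 counts, a log2 fold change of -0.20 (-0.30 to -0.11), and MT-TY 492 and 371 counts, a log2 fold change of -0.20 (-0.40 to 0.00). The 3 neighbours, whose sequences are printed above, had overlapping counting intervals and were lower in MAEL KO under each of the scalings run, though for MT-TY the interval with TMM factors reaches just past 0. Next downstream on the same strand, MT-TA, the alanine tRNA, had 3 and 0 counts. On the other strand beside them, MT-ND2 was higher in MAEL KO on one side and so was MT-CO1 on the other, the latter not with total counts.

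MT-TP, on the same light strand but last in the numbering of the genome, went the other way. It had 326 counts in MAEL WT and 583 in MAEL KO, a log2 fold change of 1.05 (0.85 to 1.25), and its ratio to the sum of MT-TN, MT-TC and MT-TY went from 0.067 to 0.157. MT-TE, the glutamate tRNA next to MT-ND6, had 36 and 48 counts and a log2 fold change of 0.61 (-0.028 to 1.29).

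Among the heavy-strand tRNAs, the adjoining MT-TH, MT-TS2 and MT-TL2 between MT-ND4 and MT-ND5, for histidine, serine and leucine, had the highest fold changes. They went from 48 to 97, from 11 to 27 and from 24 to 61 counts, with log2 fold changes of 1.21 (0.71 to 1.76), 1.42 (0.45 to 2.67) and 1.51 (0.85 to 2.30). The mRNAs on either side, MT-ND4 and MT-ND5, stood at 0.72 and 0.83, inside the intervals of MT-TH and MT-TS2 and just below that of MT-TL2. MT-TL1, the leucine tRNA between MT-RNR2 and MT-ND1, had 89 and 115 counts and a log2 fold change of 0.57 (0.17 to 1.00), between the values of its neighbours at -0.76 and 0.90. MT-TG had 53 and 67 counts, MT-TR 32 and 41, MT-TT 72 and 72 and MT-TV 15 and 12, with log2 fold changes from -0.10 to 0.55. MT-TW, for tryptophan, had 14 and 2 counts, a log2 fold change of -2.15 with a wide interval of -5.78 to -0.47.

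The other 8 tRNA genes were too low for a fold change. MT-TM had 2 counts in MAEL WT and 5 in MAEL KO, MT-TF 1 and 2, MT-TI 1 and 3, MT-TQ 0 and 3, MT-TA 3 and 0, and MT-TK 1 and 1. MT-TS1 and MT-TD had 0 counts in both libraries. A count of 0 allows up to 3 counts, or 0.151 CPM in MAEL WT and 0.144 CPM in MAEL KO, and tRNAs at 0 counts were not detected. The part of depth and of the unknown counting options in these low counts was not tested.

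Copies of mitochondrial sequence in the nuclear genome can share reads with the genes themselves. Of 407 listed genes named as such copies, 81 had a count and 8 were tested. A block of 7 copies on chromosome 1, around 629062 to 634922 of GRCh38, held 97.8% of all copy counts in MAEL WT and 99.1% in MAEL KO. The copy MTND2P28 matches MT-ND2 at 98.4% of 1042 aligned bases. The 60 bases of MT-ND2 that hold the most differences, 430 to 489, are shown beside the copy to let the closeness be seen, with differing bases in capitals.
MT-ND2: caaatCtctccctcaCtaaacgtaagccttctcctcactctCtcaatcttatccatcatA
MTND2P28: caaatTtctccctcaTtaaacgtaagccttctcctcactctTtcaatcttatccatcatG

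In that block, the well-counted copies had fold changes near those of the genes they resemble, MTND1P23 least so. MTND2P28 had 1219 counts in MAEL WT and 2713 in MAEL KO, a log2 fold change of 1.36 (1.27 to 1.46) beside 1.37 for MT-ND2. MTCO1P12, at 98.6% identity, had 1469 and 1571 counts, a log2 fold change of 0.31 (0.20 to 0.41) beside 0.25 for MT-CO1. MTATP6P1, at 98.5%, had 3446 and 4638 counts and 0.64 (0.58 to 0.70) beside 0.71 for MT-ATP6. MTND1P23, at 99.1% of 352 bases, had 1792 and 3659 counts and 1.24 (1.16 to 1.32) beside 0.90 for MT-ND1, outside its interval. These copies had 0.479% to 7.87% of the counts of their mitochondrial genes in MAEL WT and 0.499% to 9.97% in MAEL KO, so counts of both are uncertain by reads that either could have given. Of the other 4 tested copies, 3 had log2 fold changes from -1.70 to -0.81 and MTND4P12 had 1.14, each on 25 counts or fewer. The block also holds copies too low for a fold change. MTCO3P12, at 98.2% identity to MT-CO3, had 5 and 8 counts, MTCO2P12 1 and 1, and MTATP8P1 0 and 1.

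**Figure D4:**
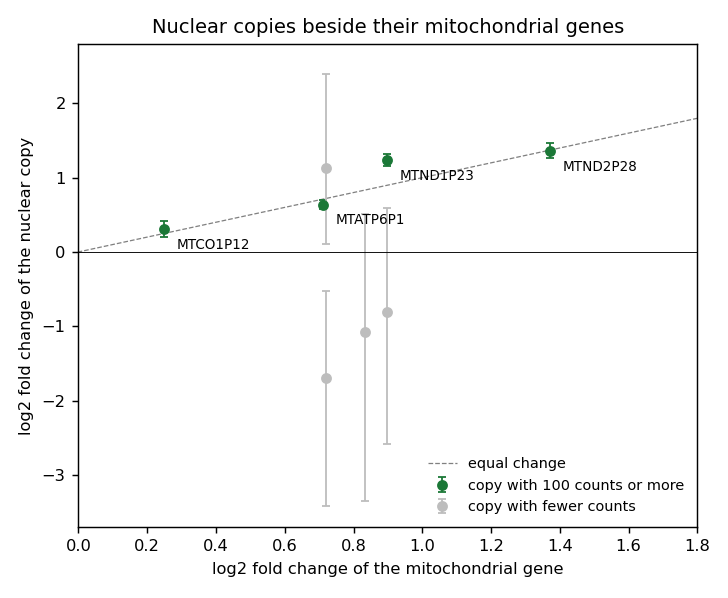
Log2 fold change of nuclear copies (y axis, bars are 95% counting intervals) against that of the mitochondrial gene each is named after (x axis), for the 8 tested copies, with a dashed line of equal change. The 4 copies with 100 counts or more lie at 0.31, 0.64, 1.24 and 1.36, with MTND1P23 at 1.24 the farthest of them from the line.

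Transcription and care of the mitochondrial genome depend on nuclear genes. Of 10 genes on the list of mitochondrial transcription, 8 were above 0, beside 48% of all tested genes, and the median of their log2 fold changes was 0.65 beside -0.038 over all tested genes. TFAM, which packs the DNA and opens its promoters, had 1075 and 2308 counts, a log2 fold change of 1.31 (1.21 to 1.42). POLRMT, the RNA polymerase, had 2401 and 3213 counts and 0.63 (0.55 to 0.71), and TFB2M, its initiation factor, 932 and 1287 counts and 0.68 (0.55 to 0.80). TEFM, an elongation factor, had 197 and 145 counts and -0.23 (-0.55 to 0.085). TFAM was the only 1 of the 10 that was past 2-fold, beside 10.2% of all tested genes at least 2-fold higher.

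Of 19 genes of replication and maintenance, 12 were above 0, beside the same 48%, with a median of 0.21 that turned to -0.066 with total counts. DNA2, a nuclease and helicase that also acts in the nucleus, had 190 and 650 counts and 1.98 (1.75 to 2.23), and MGME1, a mitochondrial exonuclease, 379 and 638 counts and 0.96 (0.78 to 1.15). EXOG, an exonuclease, was lowest at -0.38.

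Of 13 genes that process mitochondrial RNA, 11 were above 0, beside 48% of all tested genes, with a median of 0.47 beside -0.038. TRMT10C, a subunit of mitochondrial RNase P, which cuts the 5′ ends of tRNAs, had 612 and 1166 counts and 1.14 (1.00 to 1.28). ELAC2, which cuts their 3′ ends, had 1565 and 2603 counts and 0.94 (0.85 to 1.04). FASTK was lowest, with 2552 and 1791 counts and -0.30 (-0.39 to -0.21). Of 8 genes of RNA stability and decay, 6 were above 0, beside the same 48%, with a median of 0.31, or 0.037 with total counts. LRPPRC and SLIRP, which form a complex that stabilizes mitochondrial mRNAs, had 5937 and 8161 counts with 0.67 (0.62 to 0.72) and 817 and 1318 counts with 0.90 (0.77 to 1.03). REXO2, an oligoribonuclease, had 894 and 575 counts and -0.43 (-0.58 to -0.27).

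For the rRNA, 6 of 11 genes of rRNA modification were above 0, a share near the 48% of all tested genes, with a median of 0.26, or -0.019 with total counts. MRM2, a methyltransferase of the 16S rRNA, had 783 and 1316 counts and 0.96 (0.83 to 1.09), and MRM1, another, 421 and 220 counts and -0.72 (-0.97 to -0.49). For the tRNAs, 12 of 20 modification genes were above 0, beside the same 48%, with a median of 0.15, or -0.12 with total counts, and a range of -0.33 for TRMT1 to 0.74 for TRMT5. Translation factors had a median of 0.29 over 14 genes, or 0.011 with total counts. With TMM factors they ran from -0.77 for MTRF1 to 0.89 for TSFM. Of 10 tested biogenesis regulators, 6 were above 0 and 4 below, with a median of 0.41, or 0.13 with total counts. PPARGC1B, a coactivator, had 204 and 300 counts and 0.76 (0.51 to 1.03), whereas the transcription factor YY1 had 3280 and 2513 counts and -0.17 and the nuclear receptor ESRRA 1483 and 1185 counts and -0.11. TFEB was lowest of the 10, with 99 and 28 counts and -1.58 (-2.27 to -0.99). PPARGC1A was highest, with 6 and 12 counts and 1.08 (-0.32 to 2.91). Genes such as TFB1M stand on more than 1 of these lists.

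Each respiratory complex except complex II joins mitochondrial and nuclear subunits, and both genomes' genes leaned the same way with TMM factors. Over all tested genes, 48% were above 0 and the median was -0.038. For complex I the nuclear median was 0.44 over 38 genes, 30 of them above 0, beside 0.85 for the 7 mitochondrial ones. NDUFC2 was highest at 1.35 (1.14 to 1.57) and NDUFA13 lowest at -1.04 (-1.47 to -0.63). For complex III the nuclear median was 0.64 over 9 genes, all above 0, beside 0.78 for MT-CYB. For complex IV it was 0.59 over 12 genes, 11 of them above 0, beside 0.54 for the mitochondrial ones. COX6B1 had 1945 and 3931 counts and 1.23 (1.15 to 1.30), whereas COX7A2L, which helps to join complexes, had 3625 and 1783 counts and -0.81 (-0.90 to -0.73). For complex V it was 0.81 over 15 genes, all above 0, beside 0.66 for MT-ATP6 and MT-ATP8. ATP5MC3, a c-ring subunit, had 3247 and 7452 counts and 1.41 (1.35 to 1.47). Complex II, with no mitochondrial gene, had a median of 0.56 over 4 genes, all above 0. NDUFA4 is counted under both complex I and complex IV. No difference between the genomes was tested, since genes of 1 library pair are not replicates.

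**Figure D5:**
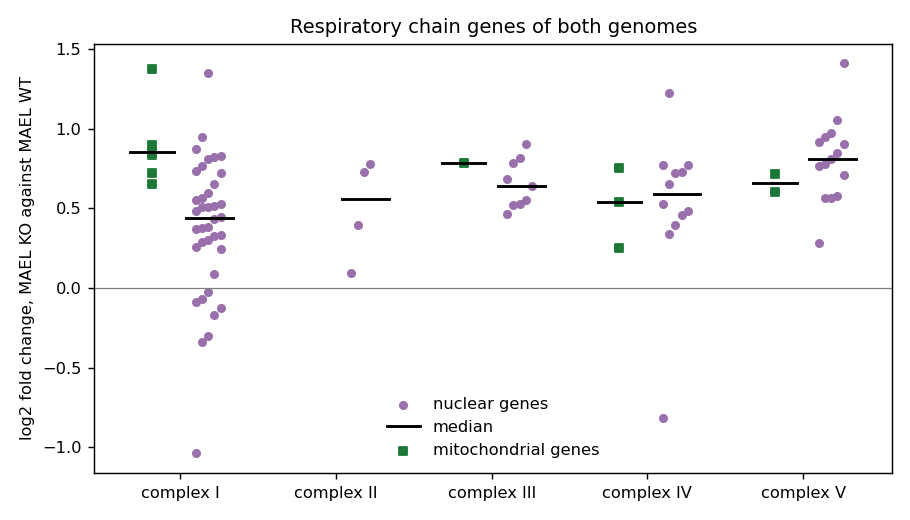
Log2 fold change, knockout over wildtype library (y axis), for mitochondrial (squares) and nuclear (circles) genes of the 5 respiratory complexes (x axis), with bars for medians. Medians of nuclear genes run from 0.44 for complex I to 0.81 for complex V, and the mitochondrial complex I genes lie at 0.65 to 1.37.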

How the data were processed

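Both RNA samples were read on a HiSeq instrument. The authors deposited unnormalized read counts per gene, and beside them deposited FPKM values. The submitters' processing notes name HISAT2 2.0.5, featureCounts 1.5.0-p3 and hg19, but the tables carry GRCh38 coordinates, and all 37 mitochondrial genes have the position and strand of GENCODE 29. The counting options, such as strand or reads that overlap several genes, are not given in the sources used here. The FPKM values equal counts over gene length and over scaled library sizes of 21872531 for MAEL WT and 18958459 for MAEL KO, which are not the count totals. These sizes stand in the same ratio as the DESeq2 size factors, 1.07 and 0.931. The FPKM values are therefore no scaling independent of those factors.

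TMM factors over all genes (1.10 and 0.909) came from edgeR 4.0.16, and DESeq2 1.42.0 gave other size factors, in R 4.3.3. Counts and intervals were computed in Python 3.11.15 with SciPy 1.17.1, alignments of nuclear copies with Biopython 1.88, and plots with matplotlib 3.10.9. The log2 fold change and its Clopper-Pearson interval were tested on simulated counts with known folds, for genes averaging 100 normalized counts or more. Normalization, other intervals and alignments were not tested in this way. No test was run between the libraries. A ratio of 2 genes has a Wald counting interval. A fold of 2 or of 4, the latter the threshold of the study, counts as past. Reads are not independent molecules, so intervals cover counting error only. Members, lists and rules were chosen with earlier results of these data known. All mRNA and rRNA genes are named, all tRNA genes are accounted for, and nuclear lists show up to 2 members at each end among genes with 100 counts or more. TFAM, POLRMT, TFB2M and LRPPRC are always named, and TFEB and PPARGC1A are named although they had fewer counts.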

Additional observations from a re-analysis of the deposited data

How the results depend on the processing

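With TMM factors, the median of the mRNAs was 0.75. The summed log2 fold change was then -0.71 (-0.72 to -0.70) for rRNAs and 0.00037 (-0.055 to 0.056) for tRNAs. Scaled by total counts, the median of the mRNAs was 0.48, the summed log2 fold change was -0.99 for rRNAs, -0.28 for tRNAs, 0.15 for the heavy strand and 0.44 for the light strand, and the nuclear medians were 0.17, 0.37, 0.31 and 0.54 for complexes I, III, IV and V. With total counts of the genes off the mitochondrial genome these were 0.48, -0.98, -0.27, 0.16 and 0.45, and 0.18, 0.37, 0.32 and 0.54. MT-CO1 changed sign to -0.028 and -0.020 under these scalings, which lower every value by construction. From deposited FPKM, the summed values were -0.69 for rRNAs, 0.52 for the heavy strand and 0.32 for the light strand, since short genes weigh more. The share of mitochondrial genes was 15.9% and 17.9% of summed FPKM in MAEL WT and MAEL KO, 3.87% and 4.72% among protein-coding genes, and 4.46% and 5.02% with nuclear copies added, and the rRNA share within them was 9.22% and 4.06% by FPKM. Nuclear copies moved the heavy strand to 0.44. Some alternatives were added after seeing the data. Scaled to the mitochondrial mRNA counts, rRNAs stood at -1.28, tRNAs at -0.57 and the light strand at 0.14. Without MT-ND6 the light strand was at -0.062, without MT-CO1 the heavy strand was at 0.52, without MT-TN, MT-TC and MT-TY the tRNAs were at 0.86, and MT-RNR1 alone was at -0.13. DESeq2 size factors, TMM without the mitochondrial genes, other added counts and other count filters moved none of the summed values or medians past its interval. For single genes, the 8 tested nuclear copies among them, only the scaling was varied. Of these values, 102 stayed within their interval, 44 moved past it and 2, both for MT-CO1, moved past it with a change of sign. Every move past an interval came under the total-count scalings. MT-TT changed sign inside its interval, to -0.065 and -0.057 under the total-count scalings. With 1 library per condition, leaving out a library was not possible. Low counts limit the tRNA genes other than MT-TN, MT-TC, MT-TY and MT-TP most.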
